A study of Mus musculus with 24 samples.

Results

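The crystallins are the structural proteins of the lens, and their transcripts were among the most variable in these mouse retinas. They are described here as a group of 10 genes, Cryaa, Cryab, Cryba1, Cryba2, Cryba4, Crybb1, Crybb2, Crybb3, Crygb and Crygs. The group was chosen from measured variation between the retinas, so the spread of these genes and the way they vary together are descriptions and are not tested. All 10 were found by symbol among the 14922 genes measured at 1 week. At 5 weeks 9 of the 10 were found among 15920 genes, Crygb being missing from that table. Of all genes, 14455 were in both tables.

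RNA was sequenced from 24 retinas of male C57BL/6J mice, 6 per group. Mice of the bTBI groups (blast-mediated traumatic brain injury) were placed in an enclosed chamber and received a blast wave, and sham mice received none. Retinas were taken at 1 week, which the labels give as 8 days, or at 5 weeks, each from a separate adult mouse. Retinal ganglion cells are named in the labels, but the study describes whole retinas dissected from enucleated eyes. The photoreceptor, bipolar, amacrine and ganglion cell genes of a list of 10 retinal markers were all measured, and their summed level was 65317 to 86629 CPM (the authors' gene counts, scaled by library size) in all retinas. Different RNeasy kits were used, the Plus Mini Kit for 1-week retinas and the Mini Kit for 5-week retinas, and effects of kit and time cannot be told apart. The depth, taken from the steps of the values, was 14301989 to 25158638 reads per retina at 1 week and 15521745 to 23838444 at 5 weeks. In bulk RNA of this kind, fewer cells of a type and less RNA per cell cannot be told apart.

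The α-crystallins, encoded by Cryaa and Cryab, are small heat shock proteins that keep other proteins from aggregating. The β- and γ-crystallins share another fold and pack at high concentration in the lens. Lens fibre cells lose their organelles as they mature and keep these proteins for life. Cryab is also made in many other tissues, the retina among them. Low levels of several β-crystallins have been described in the retina as well, whereas the γ-crystallins Crygb, Crygc and Crygd are known as products of lens fibre cells. The 9 genes other than Cryab are called the lens members below, as a name and not as a statement of where their RNA came from.

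The members lie on 6 chromosomes (GRCm38, GENCODE M21). Cryaa is on chr17:31677807-31681733, Cryab on chr9:50751325-50756636, Cryba1 on chr11:77718615-77725283 and Crygs on chr16:22805203-22811577. Cryba2 (chr1:74889934-74893143) and Crygb (chr1:65080219-65082288) are on chromosome 1. The other members form head-to-head and neighbouring pairs on chromosome 5, with 3296 bases between Cryba4 (chr5:112246493-112252518) and Crybb1 (chr5:112255815-112269585) and 5721 bases between Crybb2 (chr5:113058258-113070117) and Crybb3 (chr5:113075839-113081584). The gene of Hspb2, a small heat shock protein, overlaps that of Cryab by 1030 bases on the opposite strand. Hspb2 was not among the measured genes, and the strand setting of the counting is not given in the sources used here.

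Because the lens members rose and fell together across retinas, their promoters are shown. RefSeq promoters (GRCm38.p6, 250 bases before to 50 bases after the start) matched 9 of the 10 members, all but Cryab, whose promoter was not searched. Each was searched on both strands for the Maf motif TGCTGA, the core of the site bound by the large Maf factors that drive crystallin genes in the lens, for the TATA box TATAAA, and for the heat shock element GAANNTTC. The promoters of Cryba4 and Crybb1, which face each other, that of Cryba1 and that of Crybb2, which held none of these motifs, are printed from 150 to 11 bases before the start, 5′ to 3′ on the strand of the gene, with the motifs in capitals. They lie at chr5:112252529-112252668 (minus strand, Cryba4), chr5:112255670-112255809 (plus, Crybb1), chr11:77725304-77725443 (minus, Cryba1) and chr5:113070128-113070267 (minus, Crybb2).
Cryba4: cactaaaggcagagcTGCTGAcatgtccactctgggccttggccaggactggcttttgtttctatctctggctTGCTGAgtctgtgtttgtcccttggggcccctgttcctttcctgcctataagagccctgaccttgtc
Crybb1: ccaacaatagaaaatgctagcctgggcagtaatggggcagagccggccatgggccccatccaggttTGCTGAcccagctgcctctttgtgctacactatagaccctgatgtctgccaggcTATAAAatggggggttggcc
Cryba1: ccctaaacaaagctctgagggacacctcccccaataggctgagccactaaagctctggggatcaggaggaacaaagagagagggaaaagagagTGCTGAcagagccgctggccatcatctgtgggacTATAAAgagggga
Crybb2: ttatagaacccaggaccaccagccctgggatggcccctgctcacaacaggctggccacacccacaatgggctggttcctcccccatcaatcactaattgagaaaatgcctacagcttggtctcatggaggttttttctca

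The Maf motif was found in 7 of the 9 promoters (77.8%), those of Cryaa, Cryba1, Cryba2, Cryba4, Crybb1, Crybb3 and Crygs. It was found in 19.5% of all 32851 promoters of the same length. Cryba4 held 3 matches, 2 of which are in the stretch shown. The TATA box letters were found in 4 of the 9 (44.4%), Cryba1, Cryba2, Crybb1 and Crygs, and in 13.6% of all promoters. The heat shock element was found in 0 of the 9, which do not include Cryab, and in 7.86% of all promoters. A match of letters is not evidence of binding, and these motifs do not overlap each other in the members.

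Cryaa, the most abundant lens member, had the largest spread between retinas of any gene at both timepoints. At 1 week its lowest, median and highest level was 2.10, 47.6 and 422 CPM in sham retinas and 18.2, 109 and 4541 CPM in bTBI retinas. The highest retina was 2158 times the lowest. A pair of bTBI retinas, numbered 5 and 6, stood apart at 2003 and 4541 CPM, and the next highest was sham retina 5 at 422 CPM. The remaining 4 bTBI retinas lay within the range of the sham retinas.

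Among the β-crystallins bTBI retinas 5 and 6 were again the 2 highest. Crybb2, the most abundant of them, had 0.543, 21.2 and 166 CPM (lowest, median, highest) in sham and 8.90, 85.4 and 1587 CPM in bTBI retinas at 1 week. Cryba1 ranged from 0.611 to 64.8 CPM in sham and from 4.31 to 715 CPM in bTBI retinas. Both were highest in bTBI retina 6, then bTBI 5, then sham 5, and lowest in sham 1. Cryba2 reached 375 CPM, Cryba4 143 CPM, Crybb3 120 CPM and Crybb1 84.1 CPM. In the lens these β-crystallins form mixed oligomers. Crygs, the γ-crystallin of the lens cortex, ranged from 0.272 to 34.2 CPM in sham and from 1.95 to 393 CPM in bTBI retinas, again with bTBI 6 and 5 highest.

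Crygb did not follow this order. It was at 0 CPM in sham retina 1, where 3 reads would be 0.204 CPM, and at 0.630 to 5.92 CPM in the other sham retinas. It was highest in bTBI retina 5 at 113 CPM, followed by bTBI 3 at 29.6 CPM and bTBI 6 at 27.9 CPM. Crygb belongs to a cluster of closely similar γ-crystallin genes on chromosome 1, and how reads shared between them were counted is not given in the sources used here, so its level is uncertain.

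In all, 8 of the 10 members were highest in bTBI retina 6 at 1 week, and Cryba4 and Crygb were highest in bTBI retina 5. No member separated the groups. Of the 6 bTBI retinas, 2 lay above every sham retina for 6 members and 3 did so for Cryba4, Crybb1, Crygb and Crygs. How often other genes did so was not counted, so nothing is read from these numbers. Ranked by the SD of log2(CPM + 1) among all 14922 genes, the lens members took ranks 1 to 3, 5 to 9 and 11, and Cryab rank 31.

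**Figure D1:**
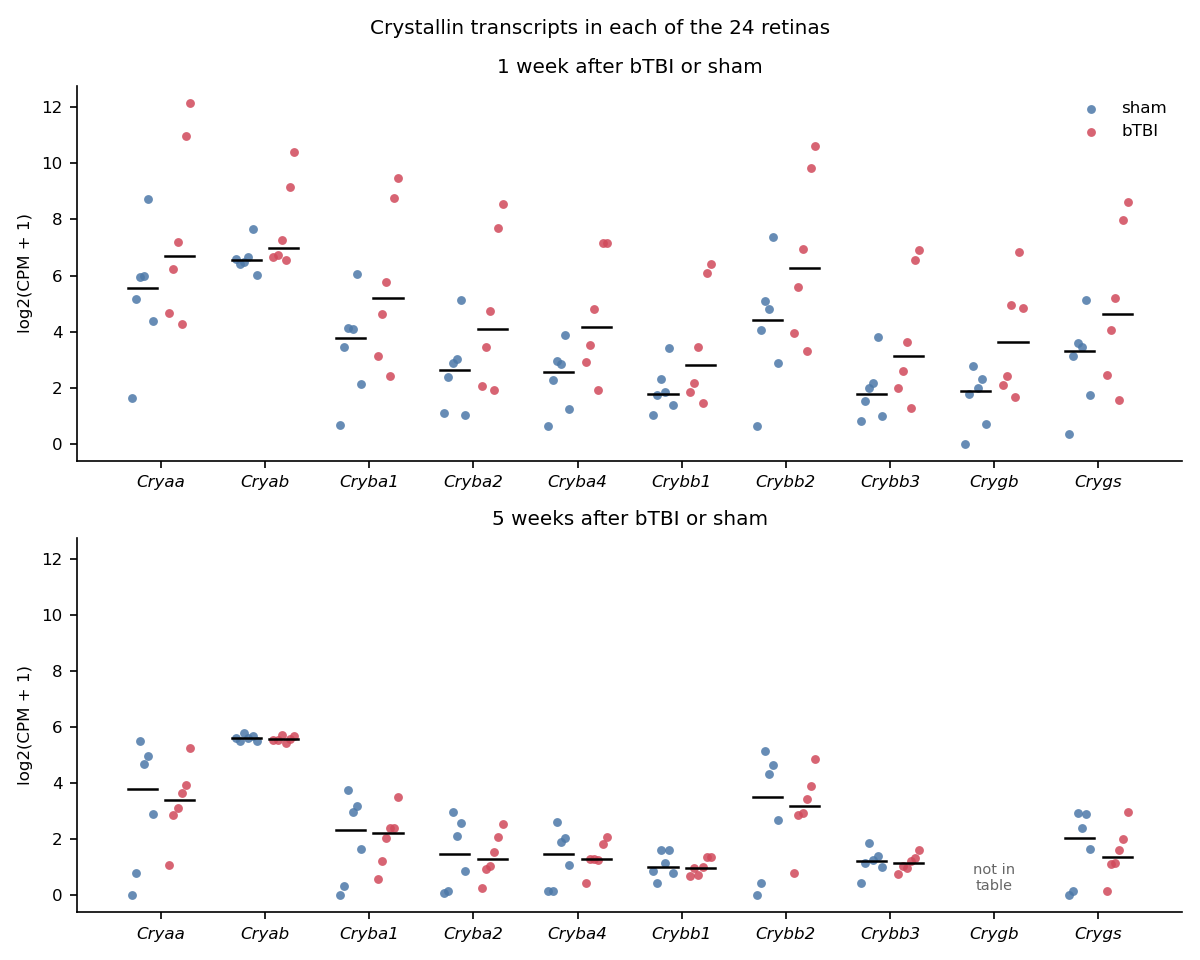
Level of each crystallin, as log2(CPM + 1), in each of the 24 retinas, with 6 sham (blue) and 6 bTBI (red) retinas per timepoint as points and the median of each group as a bar. At 1 week 2 bTBI retinas lie above all others for most members, and at 5 weeks the groups overlap and Cryab stays near 1 level.

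At 5 weeks, in a table that was normalised separately, the lens members had low values and the ranges of the 2 groups overlapped. Cryaa had 0, 15.6 and 44.4 CPM (lowest, median, highest) in sham and 1.11, 9.59 and 37.0 CPM in bTBI retinas. Crybb2 had 0, 12.2 and 34.4 CPM in sham and 0.741, 8.21 and 28.2 CPM in bTBI retinas. Here sham retina 3 was highest for 8 of the 9 members, and bTBI retina 6 was highest for Crygs. The ranks of spread were 1 for Cryaa, 2 for Crybb2, 7 for Cryba1, 8 for Crygs, 11 for Cryba2, 23 for Cryba4, 127 for Crybb3 and 131 for Crybb1 among 15920 genes.

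Sham retina 1 of 5 weeks had 0 reads of Cryaa, Crybb2, Cryba1 and Crygs, which at its depth allows up to 0.179 CPM. In the same retina Crybb1 was at 0.835 CPM (14 reads by the step of the values) and Crybb3 at 0.358 CPM (6 reads), while Cryab was at 48.3 CPM. Over the 12 retinas of 5 weeks, Crybb1 varied 5.72-fold and Crybb3 7.44-fold. Cryba4 varied 48.9-fold and Cryba2 114-fold. In sham retina 1 Crybb1 and Crybb3 thus kept a low level while most other lens members were near 0. Other low retinas differed. In sham retina 2 Crybb1 and Crybb2 were both at 0.363 CPM, with Crybb3 at 1.25 and Cryaa at 0.727 CPM. In bTBI retina 1 Crybb1 (0.618 CPM) and Crybb3 (0.679 CPM) were below Cryaa (1.11 CPM) and Crybb2 (0.741 CPM).

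Per kb of exonic sequence, which allows levels of different genes to be compared, Cryab was the highest member in the median retina, at 67.4 CPM per kb at 1 week and 32.0 at 5 weeks. Cryaa followed with medians of 29.8 and 4.62 CPM per kb. In the highest retina of 1 week this order was turned, with Cryaa at 2188 and Cryab at 907 CPM per kb. Crybb2 reached 789, Crygs 449, Cryba1 448, Cryba2 315, Crygb 178 and Cryba4 170 CPM per kb. Crybb1 (85.4) and Crybb3 (51.4) were the lowest members on this scale.

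**Figure D2:**
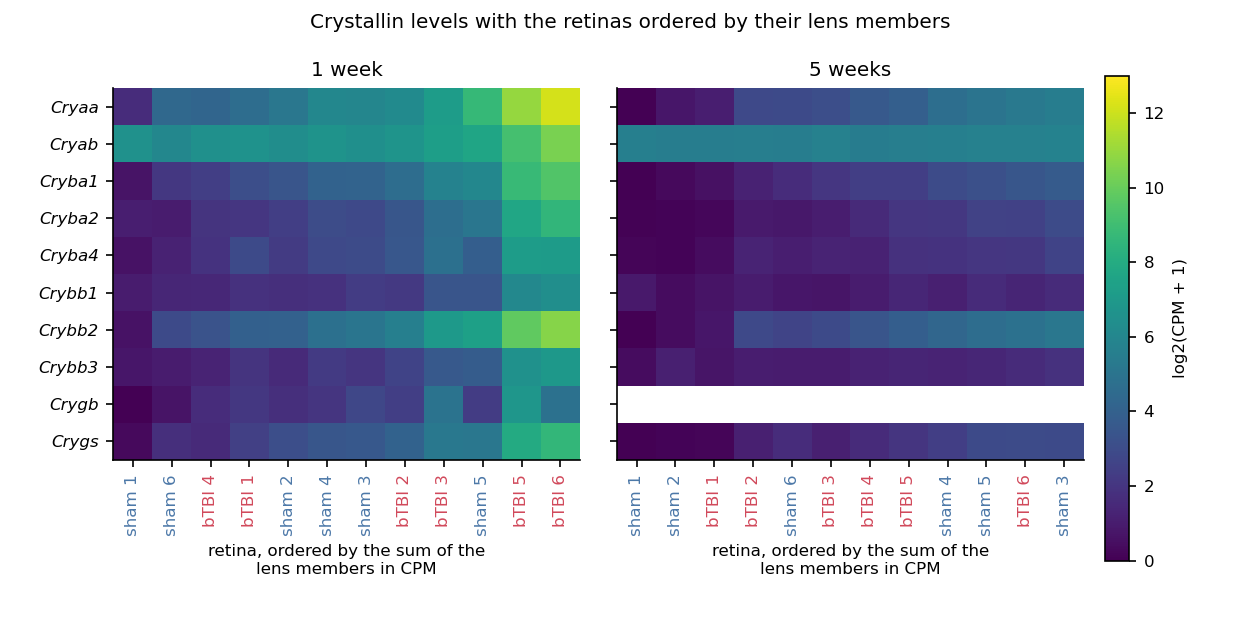
Level of each crystallin, as log2(CPM + 1), with the 12 retinas of each timepoint ordered from left to right by the sum of the lens members (bTBI names in red, sham in blue). The rows brighten together from left to right apart from Cryab at 5 weeks and Crygb at 1 week, and the blank row is Crygb, which is not in the 5-week table.

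Pairs of lens members moved together closely. Over the 12 retinas of 1 week, Pearson's r of log2(CPM + 1) was 0.855 to 0.998 in the 36 pairs without Cryab, with a median of 0.974. At 5 weeks it was 0.717 to 0.997 in 28 pairs, with a median of 0.963. The points share a library for each retina, and the members were chosen for this pattern, so no p is given. Cryba1 had the closest relation to the mean of the other lens members at 1 week, with r = 0.997, which was 0.994 without the 2 retinas farthest from the median. Crygb had the loosest, with 0.902 and 0.833. Within the 6 sham retinas alone r was at least 0.858 for each lens member at 1 week, and within the 6 bTBI retinas at least 0.884.

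Cryab, the α-crystallin that is also made in retina, behaved differently at the 2 timepoints. At 1 week it had 64.0, 92.4 and 202 CPM (lowest, median, highest) in sham and 91.9, 129 and 1342 CPM in bTBI retinas. The 3 highest retinas were again bTBI 6, bTBI 5 at 576 CPM and sham 5. Its r with the mean of the lens members was 0.918, and 0.768 without the 2 farthest retinas. At 5 weeks it ranged only from 42.6 to 54.1 CPM over all 12 retinas, a ratio of 1.27, and its rank of spread was 8838 of 15920. Its r was 0.563 there. The spread of Cryab at 5 weeks was thus that of a typical gene, while that of Cryaa was the largest of all.

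Cryab kept a base level in retinas with few lens members and was higher where they were high. A straight line of Cryab on the sum of the lens members crossed a sum of 0 at 72.7 CPM at 1 week and rose by 15.0 CPM per 100 CPM of the sum. Without the 2 retinas with the highest sums it crossed at 77.0 CPM and rose by 16.2 CPM per 100. That line, from 10 retinas, gave 1370 CPM for bTBI retina 6, where 1342 CPM were measured, and 761 CPM for bTBI retina 5, where 576 CPM were measured. Both values are extrapolations, to sums of 7986 and 4227 CPM. The highest sums among the 10 retinas were 762 CPM in sham 5 and 460 CPM in bTBI 3, so the slope rests largely on these. At 5 weeks the line crossed at 44.9 CPM with a rise of 6.57 CPM per 100, or 45.3 CPM and 4.72 CPM per 100 without the 2 highest sums. The tables of the timepoints were normalised separately, so the bases of the 2 timepoints are given side by side and not compared.

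**Figure D3:**
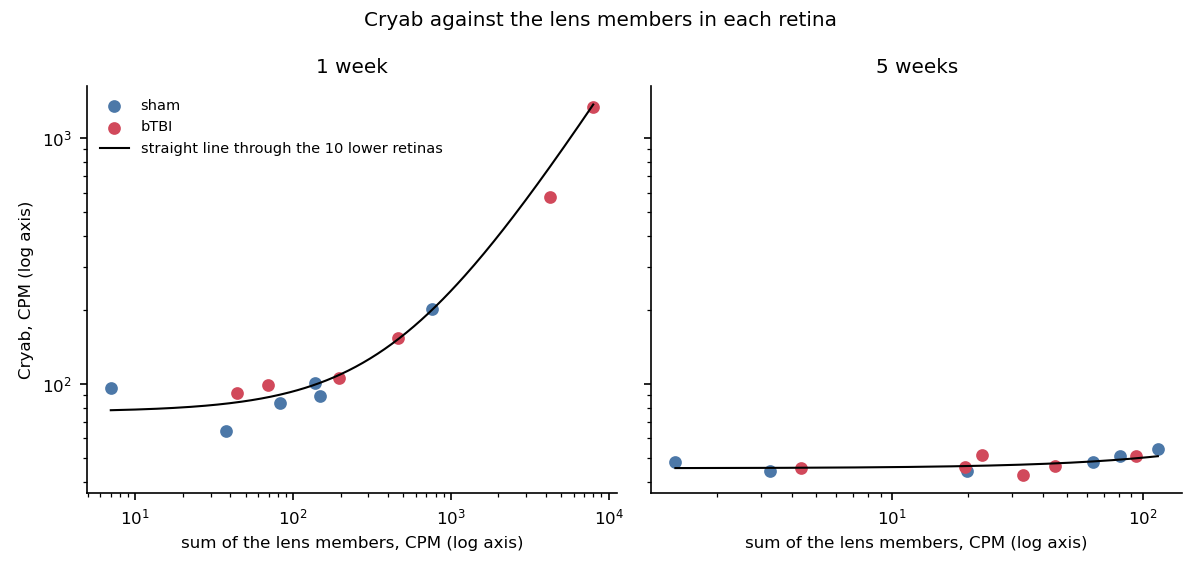
Cryab in CPM against the sum of the lens members in CPM in each retina, both on log axes, with the straight line through the 10 retinas of lower sum, drawn over all 12. At 1 week Cryab climbs from about its base with the sum, with bTBI 5 below the line, and at 5 weeks it lies between 42.6 and 54.1 CPM.

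The summed level of the lens members was 6.99 to 762 CPM in sham (median 110) and 44.3 to 7986 CPM in bTBI retinas (median 327) at 1 week. At 5 weeks it was 1.37 to 115 CPM in sham (median 41.7) and 4.32 to 93.9 CPM in bTBI retinas (median 28.1). With Cryab, the members made up 0.918% of all values in bTBI retina 6 and 0.477% in bTBI retina 5, and at most 0.0961% in the other retinas of 1 week. At 5 weeks they made up 0.00475% to 0.0171%. Cryab was 12.0% and 14.4% of the members' sum in bTBI retinas 5 and 6, and 93.2% and 97.2% in the sham retinas numbered 1 of 1 week and 5 weeks.

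The comparison of bTBI with sham retinas within a timepoint asks whether the injury changed these transcripts. At 1 week all 10 members had a higher mean in bTBI retinas, and 0 of the 10 were called by limma at an adjusted p under 0.005, where 2.25% of all genes were called. At an unadjusted p under 0.05 there were 3 members, Cryba4, Crybb3 and Crygb, beside 17.3% of all genes. This count was 2 to 10 when single retinas were left out, with all 10 members without bTBI retina 1, without bTBI retina 4 or without sham retina 5. The median log2 fold change on the log2(CPM + 1) scale was 2.17 for the members and -0.000235 for all genes. The median SE was 0.96 for the members and 0.08 for all genes.

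Crygb had the lowest adjusted p of the members by limma, with a log2 fold change of 2.20 (SE 0.76, adjusted p = 0.114, n = 6 per group), and Cryba4 followed with 2.27 (SE 0.83, adjusted p = 0.139). Crybb2 had the largest log2 fold change, 2.58 (SE 1.24, adjusted p = 0.304, limma). Cryaa had 2.27 with an SE of 1.32 and the highest adjusted p of the members by limma, 0.423. Cryab had the smallest, 1.15 (SE 0.56, adjusted p = 0.311, limma). Those of Cryba1, Cryba2, Crygs, Crybb3 and Crybb1 were 2.28, 2.15, 2.07, 1.95 and 1.62.

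Much of this difference lay in bTBI retinas 5 and 6. Without both of them, a setting chosen after the data were seen, the median log2 fold change of the members at 1 week was 0.47, and those of the members ranged from 0.16 for Cryab to 1.18 for Crygb. Cryaa was then at 0.28 and Crybb2 at 0.82, and the lowest adjusted p of a member by limma was 0.385. Without bTBI retina 6 alone the median was 1.37.

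At 5 weeks 0 of the 9 members were called, where 0.835% of all genes were called, and 0 had an unadjusted p under 0.05 by limma, where 10.9% of all genes did. Of the 9, 4 had a higher and 5 a lower mean in bTBI retinas, with a median log2 fold change of -0.03. Adjusted p values by limma ran from 0.890 to 0.990. Cryab had -0.04 with an SE of 0.05, the smallest of the members, while Cryaa had 0.17 (SE 0.76) and Crybb2 0.26 (SE 0.73). The directions of the 8 members other than Cryab turned with single retinas or with the pseudocount and are not read here.

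The difference of the bTBI effects between the timepoints, tested over all 24 retinas, was negative (lower at 5 weeks) for 9 of 9 members, with a median of -2.21. Of these, 0 were called, where 0.104% of all genes were called. Cryba4 and Crybb3 had an unadjusted p under 0.05, beside 8.5% of all genes. The lowest adjusted p by limma was 0.502, for Cryba4 (-2.22, SE 0.97). The effects at the 2 timepoints were therefore not shown to differ.

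**Figure D4:**
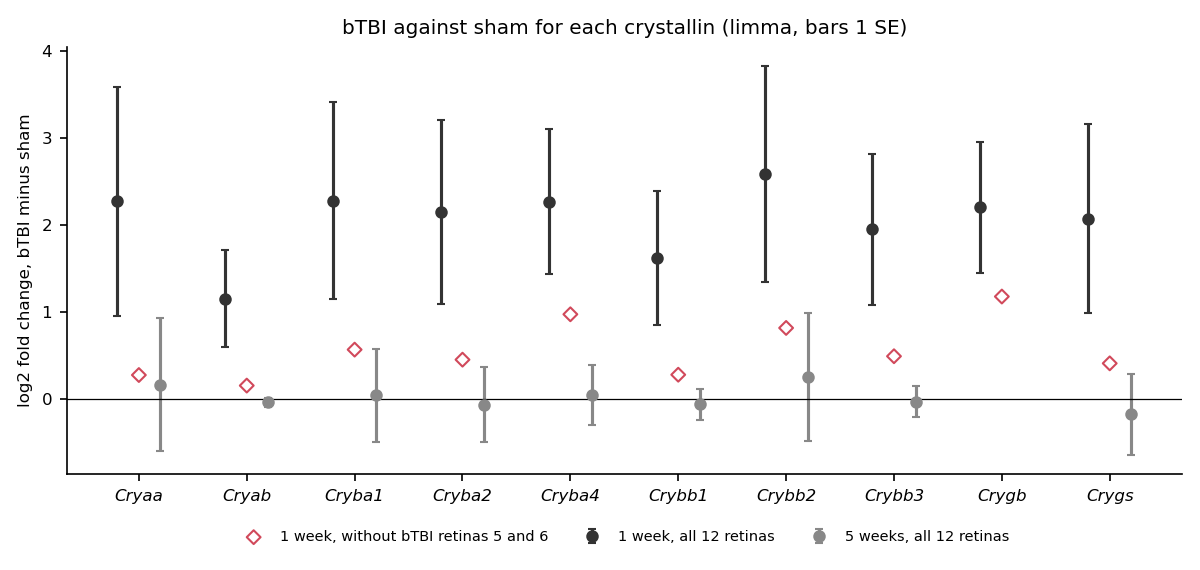
Log2 fold change of each crystallin, bTBI minus sham, from limma on log2(CPM + 1), with bars of 1 SE, at 1 week (black) and 5 weeks (grey), and at 1 week without bTBI retinas 5 and 6 (open diamonds). The 1-week values lie between 1.15 and 2.58 with all retinas and between 0.16 and 1.18 without that pair.

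The make-up of the crystallin RNA was described in the retinas with at least 20 CPM of lens members, a limit set after the values were seen, which left 11 retinas at 1 week and 7 at 5 weeks. Cryaa made up 31.3% to 56.9% of the lens members at 1 week and 32.0% to 39.4% at 5 weeks. Crybb2 followed with 17.1% to 26.8% and 29.1% to 31.4%, and Cryba1 with 8.50% to 12.2% and 9.70% to 13.7%. For each 100 CPM of Cryaa there were 32.4 to 85.6 CPM of Crybb2 at 1 week, with a median of 46.1, and 76.1 to 98.2 at 5 weeks, with a median of 79.1. These ranges of Crybb2 overlap through bTBI retina 3 of 1 week alone, at 85.6. Mice of the 2 timepoints differ in time since treatment and in the RNA kit, and the part of each in these ratios was not tested.

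Relative to Cryaa, the retinas of 1 week differed most in Crygb. The highest of the 11 ratios of Crygb to Cryaa was 33.5 times the lowest, and that of Cryba4 8.56 times, while the other lens members varied 2.44-fold to 5.84-fold. Crygb was at 0.614 and 0.939 CPM per 100 CPM of Cryaa in bTBI retina 6 and sham retina 5, and at 3.16 to 20.6 in the other 9 retinas. Cryba4 was at 3.13 and 3.26 in the same retinas and at 6.81 to 26.8 in the others. This pair, picked out after the values were seen, was also lowest for Cryba1, Crybb1, Crybb3 and Crygs. Crybb2 did not set it apart, with 34.9 and 39.4 in the pair and 32.4 in sham retina 6, nor did Cryba2. One retina of each group thus shared a low ratio of Crygb and Cryba4 to Cryaa. bTBI retina 5 was not of this kind, with 5.62 for Crygb and 7.13 for Cryba4. Cryaa made up 56.9% and 55.5% of the lens members in bTBI retina 6 and sham retina 5. All ratios to Cryaa share its level, and a high Cryaa level lowers each of them. The genes therefore do not show this pair independently of each other.

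Among other genes of lens fibre cells, none of them members, Bfsp1, Crygc and Crygd showed the same pair. Of 15 listed, 6 were measured at 1 week, the beaded filament genes Bfsp1 and Bfsp2, the γ-crystallins Crygc and Crygd, Lgsn (lengsin) and Lim2, an integral membrane protein of the fibres. The fibre genes Mip and Gja3 were not in the tables. Bfsp1 was at 0.465 and 0.614 CPM per 100 CPM of Cryaa in bTBI retina 6 and sham retina 5 and at 1.95 to 9.70 in the other 9 retinas. Crygc was at 0.392 and 0.545 against 1.95 to 12.7, and Crygd at 0.338 and 0.487 against 2.98 to 9.73. Bfsp2, Lgsn and Lim2 were not set against Cryaa, so the pair is not described for all fibre genes. In CPM, Lim2 was highest in bTBI retina 6 (15.1), then in bTBI retina 5 (12.2) and in sham retina 5 (3.28), the order of Cryaa and Cryab. Bfsp1 in CPM was higher in bTBI retina 5 (58.4) than in bTBI retina 6 (21.1).

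**Figure D5:**
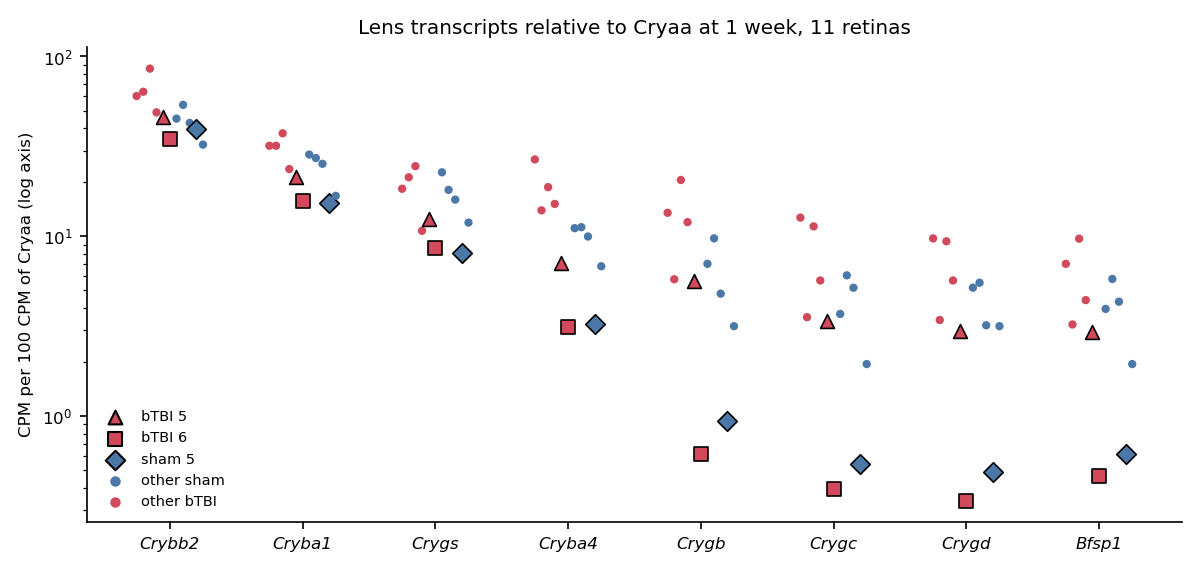
Lens transcripts at 1 week in CPM per 100 CPM of Cryaa on a log axis, in the 11 retinas with at least 20 CPM of lens members, with bTBI 5, bTBI 6 and sham 5 marked by larger symbols. bTBI 6 and sham 5 lie below all other retinas for every gene drawn except Crybb2, and farthest below for Crygb, Crygc, Crygd and Bfsp1.

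The summed level of the 6 fibre genes was 4.55 to 17.0 CPM in sham and 6.26 to 251 CPM in bTBI retinas at 1 week. It was 251 CPM in bTBI retina 5 and 97.3 CPM in bTBI retina 6, the reverse of their order for Cryaa, Cryab and Crybb2. Its r with the mean of the lens members was 0.937 over 12 retinas. By limma 0 of the 6 genes were called and 5, all but Lim2, had an unadjusted p under 0.05, beside 2.25% and 17.3% of all genes. They had log2 fold changes of 1.94 for Crygc, 1.80 for Crygd, 1.66 for Bfsp1, 1.40 for Lgsn, 1.23 for Bfsp2 and 0.78 for Lim2 and adjusted p values by limma of 0.130 to 0.401. At 5 weeks Bfsp1, Bfsp2 and Lim2 were measured, each at 2.33 CPM or less in every retina, and 0 were called or had an unadjusted p under 0.05. Of all genes, 0.835% were called there and 10.9% had such a p.

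For likeness over both timepoints, the mean of the lens members was taken without Crygb, which was not measured at 5 weeks. Bfsp1 was also the gene most like them of 14446 ranked over the 24 retinas, with r = 0.901 after each timepoint was centred, and 1 gene reached 0.9. It was alike at both timepoints, with 0.914 at 1 week and 0.886 at 5 weeks. Bfsp2 (0.858) and Lim2 (0.795) came next, followed by Col4a1 (0.791), Slc7a2 (0.785), Nid1 (0.780), Col4a2 (0.764) and Adgra2 (0.763). The genes most like Cryab were Col4a1 (0.953), Lim2 (0.946), Col4a2 (0.921), Nid1 (0.910) and Cd24a (0.906). Col4a1, Col4a2 and Nid1 encode type IV collagen chains and nidogen, parts of basement membranes. Col4a1 was at 53.1 and 115 CPM in bTBI retinas 5 and 6 of 1 week and at 15.1 to 30.0 CPM in the other 10, and Nid1 was at 21.6 and 51.6 CPM. Slc7a2 kept an r of 0.507 with the lens members at 5 weeks. Apart from Bfsp1 and Slc7a2, the likenesses to the lens members rest largely on 1 week and on the 2 farthest retinas. Without those retinas r with the lens members was 0.664 for Bfsp2, 0.452 for Lim2, 0.504 for Col4a1, 0.492 for Nid1 and 0.394 for Col4a2. At 5 weeks it was 0.347 for Bfsp2, -0.25 for Lim2, -0.07 for Col4a1 and -0.43 for Nid1. The likenesses to Cryab also rest largely on 1 week. At 5 weeks r with Cryab was -0.21 for Col4a1, -0.20 for Lim2, -0.25 for Col4a2, 0.22 for Nid1 and -0.09 for Cd24a. They depended less on the 2 retinas farthest for Cryab. Without those, r over both timepoints was 0.769 for Col4a1, 0.779 for Lim2, 0.627 for Col4a2, 0.713 for Nid1 and 0.609 for Cd24a.

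Genes of transcription factors that control lens crystallins were examined next. Of 7 listed, 4 were measured, and each of Maf, Pax6, Prox1 and Hsf4 is also expressed in cells other than those of the lens. Of the 4, 0 were called by limma at either timepoint, beside 2.25% of all genes at 1 week and 0.835% at 5 weeks. At each timepoint 2 of the 4 had an unadjusted p under 0.05, beside 17.3% and 10.9% of all genes. Pax6 and Prox1 had log2 fold changes of -0.02 and 0.03 at 1 week. Hsf4, a heat shock factor of the lens, had a log2 fold change of -0.32 at both timepoints (adjusted p by limma 0.0209 and 0.0114), and Maf had 0.30 at 1 week (adjusted p by limma 0.0226). These 3 values did not pass 0.005.

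Of the genes listed by the small heat shock protein symbol Hspb, 4 were measured. Hspb1, Hspb6 and Hspb8 are relatives of Cryaa and Cryab, and Hspb11, despite its name, encodes an intraflagellar transport protein. By limma 0 of the 4 were called at either timepoint, beside 2.25% and 0.835% of all genes. An unadjusted p under 0.05 was found for 3 at 1 week and 1 at 5 weeks, beside 17.3% and 10.9% of all genes. At 1 week the log2 fold changes of Hspb1, Hspb6, Hspb8 and Hspb11 were 0.61, 0.24, 0.42 and -0.10. Their adjusted p values by limma were 0.0865, 0.0468, 0.115 and 0.752. Hspb8 had -0.30 at 5 weeks (adjusted p = 0.149, limma). Further genes that carry a crystallin name were also measured, Crybg1, Crybg3, Crygn, Cryl1, Crym, Cryz and Cryzl1 at 1 week and 6 of these, without Crygn, at 5 weeks. By limma 0 of them were called at either timepoint, and Crym alone had an unadjusted p under 0.05, at 1 week. The shares of all genes given above apply here too. Crym encodes a thyroid hormone binding protein, and its log2 fold change was 0.57 at 1 week (adjusted p = 0.0163, limma) with 69.7 to 94.5 CPM in sham and 97.2 to 190 CPM in bTBI retinas. Its level in bTBI retinas 5 and 6, which had the most lens members, was not the highest. Crygn was at 2.77 and 5.73 CPM in bTBI retinas 5 and 6 of 1 week and at most 1.95 CPM in sham retinas. The r of Crygn with the lens members was 0.753, and 0.161 without the 2 farthest retinas.

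Markers of other eye tissues were set beside the members. The 5 measured genes of 6 for ciliary body, iris and vitreous summed to 46.9 to 130 CPM in sham and 52.2 to 182 CPM in bTBI retinas at 1 week, and bTBI retinas 5 and 6 were the 2 highest, at 182 and 180 CPM. The 4 measured of 5 sclera and fibroblast genes summed to 3.87 to 31.4 CPM in sham and 4.52 to 180 CPM in bTBI retinas, with 67.3 and 46.0 CPM in bTBI retinas 5 and 6. The 9 measured of 10 pigment epithelium genes summed to 2626 to 4798 CPM in sham and 2908 to 4224 CPM in bTBI retinas, and bTBI retinas 5 and 6 ranked 8 and 7 of 12. Single genes of this list differed from its sum, in which Ttr and Rpe65 weigh most. The pigment cell genes Tyrp1, Dct, Pmel, Mlana and Slc45a2, 5 of the 9, were above every sham retina in both bTBI 5 and bTBI 6. Tyrp1 was at 201 and 181 CPM there and at most 121 CPM in sham retinas. The r of these 5 with the lens members was 0.673 to 0.745, and 0.0847 to 0.315 without the 2 farthest retinas. Tyr, another pigment cell gene, was at 48.9 and 52.9 CPM in bTBI 5 and 6 and reached 59.0 CPM in sham retinas. Levels above every sham retina in both were also found for 3 of 5 ciliary body, iris and vitreous genes and 3 of 4 sclera and fibroblast genes. The same held for 6 of 6 lens fibre genes, 1 of 4 lens transcription factors and 2 of 7 crystallin relatives. It also held for 5 of 6 reactive macroglia genes and 3 of 4 Hspb genes. Among retinal markers 1 of 10 was so, and among red cell genes 0 of 5. The share over all genes was not counted, so these counts are not read as particular to any list. None of 5 cornea genes was measured. In the lists of eye tissues other than retina 0 genes were called by limma at either timepoint, beside 2.25% and 0.835% of all genes. At 1 week Optc, Slc4a4 and Col1a2 had an unadjusted p under 0.05 by limma, beside 17.3% of all genes. The part of ciliary body, iris, vitreous, pigmented, sclera or lens tissue in the members' levels was not tested.

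The sums of red cell genes (5 of 5 measured, 43.2 to 79.3 CPM at 1 week) and Müller glia genes (6 of 6, 6198 to 7418 CPM) did not rank bTBI retinas 5 and 6 highest. As single genes, 2 of the 6 Müller glia genes, Slc1a3 and Dkk3, were above every sham retina in both. Dkk3 was at 1624.6 and 1712.8 CPM there and at most 1493.5 CPM in sham retinas. By limma 0 genes of these lists were called, beside 2.25% of all genes at 1 week and 0.835% at 5 weeks. At an unadjusted p under 0.05 there were 4 Müller glia genes at 1 week, beside 17.3% of all genes. Myelin genes (2 of 5 measured) were at 3342 CPM in bTBI retina 3 and 165 CPM in bTBI retina 4, and at 36.5 to 43.3 CPM in the other 10 retinas, bTBI 5 and 6 among them. Of 6 reactive macroglia genes, Edn2, Gfap, Stat3 and Vim rose in bTBI retinas at 1 week, beside 2.25% of all genes called in either direction. At 5 weeks 0 of the 6 were called by limma and 3, Edn2, Gfap and Stat3, had an unadjusted p under 0.05, with log2 fold changes of 0.59, 0.32 and 0.18. Of all genes, 0.835% were called and 10.9% had such a p at 5 weeks. Of 10 retinal markers the ganglion cell genes Pou4f1 and Rbpms fell at both timepoints, beside 2.25% and 0.835% of all genes called in either direction. The log2 fold change of Pou4f1 at 1 week, -0.49, came with an SE of 0.07, beside an SE of 1.32 for Cryaa in the same retinas.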

How the data were processed

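The deposited signal values are gene counts that the authors scaled like CPM with edgeR's effective library sizes, separately for each timepoint, after low genes were removed. Per the labels and the study's methods, polyA RNA was sequenced paired-end from TruSeq stranded libraries, mapped to GRCm38 (mm10) with STAR and counted with featureCounts. Depth was taken as the sum of a retina's values over their step, of which 99.9866% to 100% of the values in a retina are whole multiples within 0.01; the authors give no total to compare it with. Values were compared as log2(CPM + 1) between 6 bTBI and 6 sham retinas with limma 3.58.1 in R 4.3.3 (trend=TRUE, robust=FALSE), with p adjusted by Benjamini-Hochberg over every gene tested, and called at an adjusted p under 0.005. The difference between timepoints was fitted over all 24 retinas and the 14455 shared genes. Per the study's methods, the 12 retinas of a timepoint came from 12 mice. Replicate numbers did not pair the samples (correlations of deviations -0.253 to 0.541 at 1 week). All members were named. Of the other lists, fibre genes, small heat shock genes and crystallin relatives were named where measured, and otherwise called genes and at most 2 of the most abundant per list. The members and lists were chosen with earlier results of these data known. Cornea, red cell, pigment epithelium, myelin, Müller glia, macroglia, sclera, ciliary body and retina lists served as markers. Gene lengths and coordinates are from GENCODE M21, promoters from RefSeq. IDs without a symbol numbered 15 and 18. The fit was tested on simulated data. Alternatives were a pseudocount of 0.1, median of ratios or library totals scaling, at least 1 CPM in 6 of 12 retinas, a robust prior, a prior without trend, the replicate block, all 24 retinas in 1 fit, a threshold of 0.05 and single omissions.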

Additional observations from a re-analysis of the deposited data

How the results depend on the processing

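The count of members called stayed at 0 at 1 week, at 5 weeks and for the difference between the timepoints under every setting that was run. These counts used an adjusted p under 0.005, and with 0.05 in the fit reported they were also 0. At 1 week 3 values of other settings lay under 0.05 by limma, 0.0296 for Crygb with the replicate number as a replicate block, 0.0321 for Cryba4 with all 24 retinas in 1 fit and 0.0497 for Cryba4 without bTBI retina 4. All 10 members had an unadjusted p under 0.05 with the block and 8 of the members in both tables did so in the fit of 24 retinas, beside 3 in the fit reported. The numbers pair no samples by the labels, and the block changed no call. Leaving out 1 retina at a time gave a median log2 fold change of the members of 1.37 to 2.73 at 1 week and -0.32 to 0.24 at 5 weeks, the lowest at 1 week without bTBI retina 6. The other planned settings gave medians of 2.15 to 2.37 at 1 week and -0.03 to 0.27 at 5 weeks, and bTBI retinas 5 and 6 left out together gave 0.47.

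At 5 weeks the direction of 8 members was not stable. A pseudocount of 0.1 turned the log2 fold changes of Cryba2, Crybb3 and Crygs to 0.27, 0.012 and 0.16. Over the single omissions they ranged from -0.46 to 0.64 for Cryaa, -0.35 to 0.40 for Cryba1, -0.34 to 0.24 for Cryba2, -0.19 to 0.30 for Cryba4, -0.19 to 0.049 for Crybb1, -0.32 to 0.73 for Crybb2, -0.18 to 0.11 for Crybb3 and -0.51 to 0.10 for Crygs. The cause was not tested. Reads recovered from the steps of the scaled values could not be checked against counts from the authors. The planned count tests on recovered reads were not run. Depth limits the members at 5 weeks, where several lens members were near or under 3 reads in single retinas. Over 38 groups of 6 values, 0 held a single retina far enough from the next value by Dixon's criterion. The criterion takes the gap between the most extreme value and the next. A pair such as bTBI retinas 5 and 6 can therefore mask each other, and nothing is read from it on that pair.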
